A study of Zea mays with 24 samples.

Results

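Endosperm of a ZmICE1a mutant of maize (Zea mays) that had received JA was compared with the endosperm whose count files are named as wild type with JA. JA is jasmonic acid. The comparison takes 6 of the 24 RNA libraries of the series, 3 in each group, and they were chosen by the names of the count files. All of them are endosperm taken 15 days after pollination, and each library was made from RNA of 5 to 10 endosperms that had been pooled. Libraries were made by MP3RNA-seq, which reads the 3′ ends of transcripts. The labels used here give neither the dose and duration of JA nor the mutant allele.

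The labels of 3 of these libraries conflict. In the mutant JA group the title, the genotype field, the treatment field and the file name all read mutant with JA. The other 3 libraries have files named as wild type with JA, but titles that read mutant without JA, a genotype field that reads wild type and a treatment field that reads untreated. They are called the file-named wild type JA group here, as a name only. By file name the comparison is genotype under JA, by title it is JA in the mutant, and by the genotype and treatment fields it is both at once. These readings cannot be told apart from the labels, and every value below is the same under each of them.

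The JA experiment holds a further pair of groups with 3 libraries each. The file-named mutant no-JA group has the opposite conflict: its titles read wild type with JA, its genotype field reads mutant, its treatment field reads JA treatment and its file names read mutant without JA. The wild type no-JA group is labelled wild type and untreated in every field. These groups are called the no-JA pair after their file names, as a name only. By file name the pair is genotype without JA, and by title it is JA in wild type. By the genotype and treatment fields it is mutant with JA against untreated wild type, the same labels as in the mutant JA comparison. A separate genotype experiment compared 3 mutant with 3 wild type libraries, with no hormone and with no conflict in its labels. No library is shared between the mutant JA comparison, the no-JA pair and the genotype experiment.

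ICE1 is a basic helix-loop-helix transcription factor known from Arabidopsis for its part in the cold response, and JA is a plant hormone known for its role in defence and wounding. In Arabidopsis, JA acts when JAZ repressors are degraded and transcription factors such as MYC2 are released. Maize endosperm stores starch and zein proteins and takes up most of the kernel at this stage. The purpose given for the series is the regulatory function of ZmICE1a in developing endosperm.

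The libraries held 847205 to 857113 counts each in the mutant JA group and 1170331 to 1319107 in the file-named wild type JA group, so every library of the file-named wild type JA group was deeper. The 50 most abundant features took 44.2 to 46.0% of the counts in the mutant JA group and 46.0 to 47.1% in the file-named wild type JA group. Mitochondrial features took 0.369 to 0.588% of the counts in the mutant JA group and 0.388 to 0.407% in the file-named wild type JA group. ENSRNA features, a class of identifiers that is not named further in the files, took 2.02 to 3.44% in the mutant JA group and 2.19 to 2.77% in the file-named wild type JA group. A pair of libraries of the file-named mutant no-JA group stood apart with ENSRNA shares of 10.7 and 6.84%. Whether replicates are separate plants is not stated in the labels, so each p-value reflects the spread between libraries alone, and that spread may be technical. The files give nuclear genes by identifier alone, so the level of ZmICE1a and of marker genes of the endosperm cell types could not be read, and the labelled genotype and tissue were not checked against them. In bulk tissue, fewer cells of a type and less RNA per cell cannot be told apart.

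In the mutant JA group 139 features were higher and 189 were lower than in the file-named wild type JA group. These 328 features are 2.91% of the 11265 tested with edgeR's quasi-likelihood test at a Benjamini-Hochberg adjusted p under 0.05, with 1.23% higher and 1.68% lower. A total of 1739 features, 15.4% of those tested, had an unadjusted p under 0.05. The sizes were modest: the median absolute log2 fold change of the called features was 0.79, with quartiles at 0.55 and 1.20. An absolute log2 fold change of at least 1 was seen in 107 of them, 0.95% of the features tested, of which 51 (0.453%) were higher and 56 (0.497%) lower. The median log2 fold change over everything tested was 0.01. In 327 of the 328 the libraries of the groups did not overlap, which was so for 2215 features, 19.7%, of all tested. DESeq2 called 326 features, 2.89%, with 139 higher and 187 lower, and 273 were called by both tools in the same direction. The count depended on every library, since leaving out any of the 6 in turn left 180 to 216 called features, and the 6 libraries fitted without the rest of the JA experiment gave 214.

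Nuclear gene models supplied 324 of the calls, 137 higher and 187 lower, 2.95% of the 10993 tested. The gene with the largest increase among those of at least 10 CPM (counts scaled to a common library size, with TMM factors) was Zm00001d042504. It had 74.8, 65.8 and 81.5 CPM in the mutant JA group, against 11.98, 3.35 and 10.8 CPM in the file-named wild type JA group. Every mutant JA library lay above every library of the file-named wild type JA group, which the rule for naming genes required. The log2 fold change was 3.09 ± 0.29 (SE, 3 libraries a group, edgeR adjusted p = 2.69e-05), and the call held with any single library left out. In the no-JA pair the same gene had 64.6, 65.6 and 68.4 CPM in the file-named mutant libraries, against 7.96, 14.7 and 9.93 CPM in wild type, a log2 fold change of 2.60 ± 0.26 (edgeR adjusted p = 4.20e-05). The separate genotype experiment gave another picture. There Zm00001d042504 had 63.7, 59.8 and 56.1 CPM in mutant and 68.2, 66.4 and 68.6 CPM in wild type, a log2 fold change of -0.18 ± 0.07 that did not pass the test (edgeR adjusted p = 0.170). Only the file-named wild type JA group and the wild type no-JA group lay low for this gene among the 6 groups.

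Zm00001d039484 was the next gene by size of increase, but it rested on few reads. Its levels were 19.9, 13.9 and 11.1 CPM in the mutant JA group, against 0.921, 4.19 and 0 CPM in the file-named wild type JA group, from 36 and 6 counts in all. The groups did not overlap, as the rule for naming genes required, and the log2 fold change was 3.01 ± 0.66 (edgeR adjusted p = 0.0208). The call was lost when any of 4 libraries was left out, replicates 1 and 2 of the mutant JA group and replicates 1 and 3 of the file-named wild type JA group, with edgeR adjusted p-values up to 0.0937. It was lost too when all libraries were thinned to the same depth (edgeR adjusted p = 0.0682). Its log2 fold change in the no-JA pair was 0.27 ± 0.48 (edgeR adjusted p = 0.818).

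Among nuclear genes of at least 10 CPM in either group the largest decrease was that of Zm00001d008417, with 1.25, 1.27 and 3.70 CPM in the mutant JA group, against 16.6, 8.38 and 8.07 CPM in the file-named wild type JA group. All libraries of the mutant JA group lay below those of the file-named wild type JA group, as the same rule required, on 5 and 37 counts in all. The log2 fold change was -2.34 ± 0.56 (edgeR adjusted p = 0.0354), and the call was lost in each of the 6 fits without a library, with edgeR adjusted p-values up to 0.143. A fit with the replicate number as a block lost it as well (edgeR adjusted p = 0.0662). The levels in the no-JA pair were 8.35, 9.93 and 8.11 CPM in the file-named mutant libraries and 6.97, 11.8 and 9.35 CPM in wild type, which overlap.

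Zm00001d042361 had 1.25, 2.53 and 4.94 CPM in the mutant JA group, against 14.7, 14.2 and 12.6 CPM in the file-named wild type JA group. The log2 fold change was -2.21 ± 0.50 (edgeR adjusted p = 0.0270), on 7 and 47 counts. In the no-JA pair it had 2.28, 7.95 and 3.48 CPM in the file-named mutant libraries, against 23.9, 24.8 and 17.5 CPM in wild type, and fell by 2.30 on the log2 scale (edgeR adjusted p = 0.00237). In both pairs the libraries with mutant in the file name were the low ones. The gene did not pass the low-count filter of the genotype experiment, whose libraries were deeper, so neither of its groups gives a level to set beside these. The call in the mutant JA comparison held only without replicate 3 of the mutant JA group (edgeR adjusted p = 0.0349) and was lost in the other 5 such fits, up to an edgeR adjusted p of 0.112. It was lost at equal depth too (edgeR adjusted p = 0.0684).

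**Figure D1:**
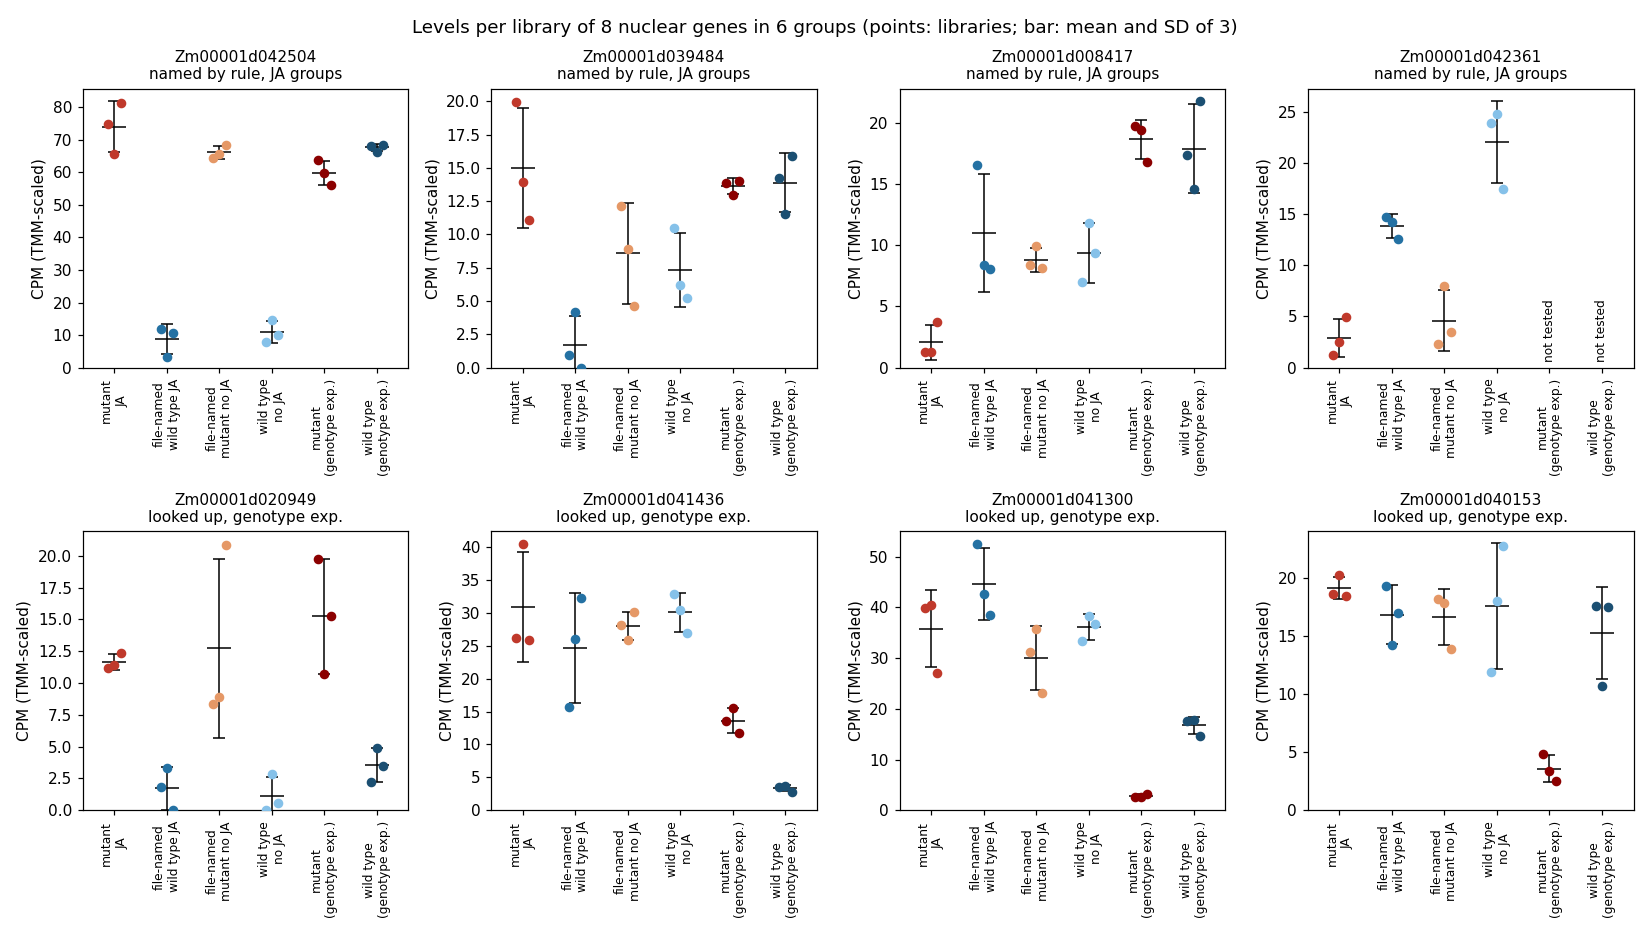
Level of 8 nuclear genes in CPM, on a linear axis from 0, in each library of the 4 JA groups and of the genotype experiment (points), with the mean and SD of 3 libraries (bars). Zm00001d042361 was not tested in the genotype experiment and has no points there. Zm00001d042504 lies between 65.8 and 81.5 CPM in the mutant JA libraries and at most at 11.98 CPM in the file-named wild type JA libraries, whereas both groups of the genotype experiment lie high.

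Calls were more frequent among abundant than among scarce transcripts. The test can call smaller differences where counts are higher, and how far this sets the shares below was not tested. Of the 1299 features with at least 100 CPM in either group, 173 were called, 13.3%, with 69 higher and 104 lower and a median absolute log2 fold change of 0.57. Of the 9966 features below that level 155 were called, 1.56%, and their median was 1.13. Among the 50 most abundant features 23 were called, 46.0%, with 12 higher and 11 lower. Their largest absolute log2 fold change was 1.21, and the median over all 50 was 0.03, so that their values lay on both sides of 0.

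**Figure D2:**
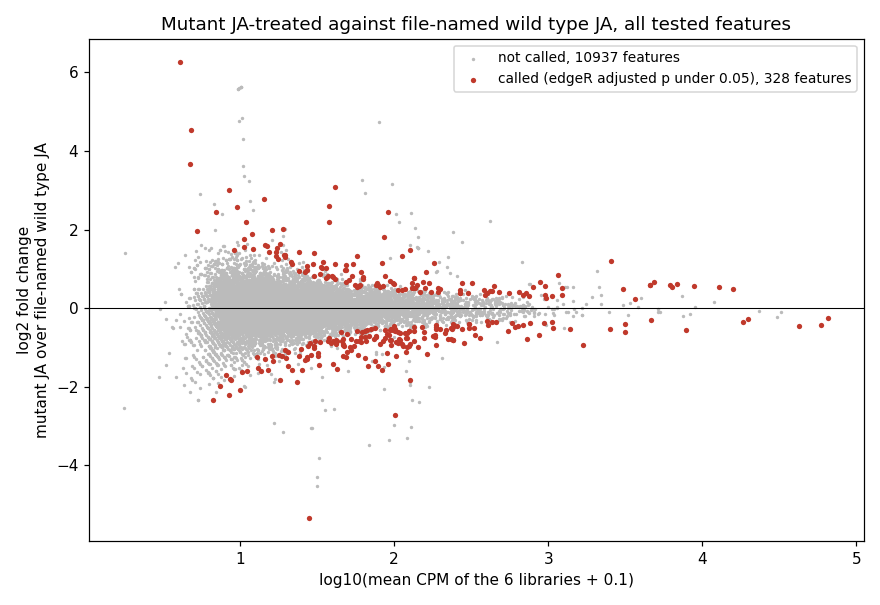
Log2 fold change of the mutant JA group over the file-named wild type JA group (vertical) against the base-10 logarithm of the mean CPM of the 6 libraries plus 0.1 (horizontal) for each tested feature, with the 328 called features in red. Called features of high abundance lie close to the zero line, while those of low abundance lie far from it.

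ENSRNA features made up 238 of those tested, and 4 of them were called, 2 in each direction, 1.68% against 2.91% of all features tested. They fall outside the naming rule and are named after their values were seen. ENSRNA049472630 was the steadiest, with 47.3, 40.5 and 48.1 CPM in the mutant JA group, against 21.2, 21.8 and 23.3 CPM in the file-named wild type JA group (log2 fold change 1.03 ± 0.24, edgeR adjusted p = 0.0289). ENSRNA049478900 had 93.4, 38.0 and 62.9 CPM in the mutant JA group, against 3.68, 6.70 and 21.5 CPM in the file-named wild type JA group (2.60 ± 0.64 on the log2 scale, edgeR adjusted p = 0.0417). Both were higher in every mutant JA library. The other 2 were lower. ENSRNA049478494 had 34.9, 30.4 and 14.8 CPM in the mutant JA group, against 32.2, 83.0 and 415 CPM in the file-named wild type JA group (-2.72 ± 0.68 on the log2 scale, edgeR adjusted p = 0.0438), and the groups overlap. ENSRNA049478272 had 0, 1.27 and 2.47 CPM in the mutant JA group, against 3.68, 80.5 and 78.9 CPM in the file-named wild type JA group (-5.34 ± 1.20 on the log2 scale, 95% interval -7.90 to -2.78, edgeR adjusted p = 0.0254). On 3 and 188 pooled counts its ratio was 0.0225, with a 95% interval (exact binomial, for counting error alone) of 0.00461 to 0.0669. The interval of the ratio leaves out the spread between libraries.

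The organelle genomes were the part of the transcriptome that could be described by gene name. How well a 3′-end method captures organelle transcripts was not tested, so their CPM values may not reflect transcript levels. The mitochondrial genome encodes subunits of the respiratory chain and ATP synthase, ribosomal proteins and proteins of cytochrome c maturation. Of 26 mitochondrial protein-coding genes and open reading frames tested, 20 had a positive log2 fold change in the mutant JA group over the file-named wild type JA group, with a median of 0.27 and a range from -0.76 to 0.90. Of all 11265 features tested, 5704 were positive. None of the 26 was called by edgeR, where 4 (15.4%) had an unadjusted p under 0.05, or by DESeq2, where 3 (11.5%) had. Over all features tested the shares at an unadjusted p under 0.05 were 15.4% in edgeR and 11.6% in DESeq2, so the mitochondrial shares were at the background. After thinning to equal depth 20 of the 26 were tested, and 16 of these were positive with a median of 0.16. The mitochondrial share of counts varied more in the mutant JA libraries than in the others, as given above, and replicate 2 of the mutant JA group had the lowest.

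Among the respiratory chain genes nad4, a subunit of complex I, had 103, 68.3 and 87.6 CPM in the mutant JA group, against 59.9, 62.0 and 51.1 CPM in the file-named wild type JA group. Every mutant JA library was higher, but the log2 fold change of 0.58 ± 0.22 (95% interval 0.12 to 1.04) missed the threshold (edgeR adjusted p = 0.189). The other complex I gene, nad3, had 17.4, 8.86 and 19.7 CPM in the mutant JA group and 14.7, 15.9 and 26.9 CPM in the file-named wild type JA group, which overlap (log2 fold change -0.31, 95% interval -1.29 to 0.66).

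The subunits of cytochrome c oxidase, complex IV of the chain, did not share a sign. The gene cox1 had 28.7, 54.4 and 44.4 CPM in the mutant JA group and 24.0, 42.7 and 32.3 CPM in the file-named wild type JA group (log2 fold change 0.36, 95% interval -0.27 to 0.99). The gene cox3 had 136, 109 and 102 CPM in the mutant JA group and 106, 97.2 and 101 CPM in the file-named wild type JA group (0.19, 95% interval -0.13 to 0.51). The groups overlap for cox1, and for cox3 the lowest mutant JA library lay below the highest of the file-named wild type JA libraries. The gene cox2 had 13.7, 7.59 and 29.6 CPM in the mutant JA group, against 23.0, 28.5 and 35.0 CPM in the file-named wild type JA group, the most negative value of the mitochondrial genes, but its interval of -1.92 to 0.40 spans no change.

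Of the ATP synthase genes, atp4 had 97.2, 84.8 and 111 CPM in the mutant JA group and 87.5, 98.1 and 95.1 CPM in the file-named wild type JA group, a log2 fold change of 0.06 with a 95% interval of -0.26 to 0.38. This interval is among the narrowest of the mitochondrial genes. The gene atp1-a1, for the alpha subunit, was much less certain (0.49, 95% interval -1.08 to 2.07). Of the 6 ribosomal protein genes tested 4 were positive, with a median log2 fold change of 0.20. The most abundant, rps1, had 227, 215 and 241 CPM in the mutant JA group and 239, 173 and 234 CPM in the file-named wild type JA group (0.08, 95% interval -0.33 to 0.49). The values of rpl16, rps7, rps2A, rps3 and rps12 were 0.48, 0.42, 0.31, -0.09 and -0.15 on the same scale. Of the cytochrome c maturation genes, ccmFN had a log2 fold change of 0.14 and ccmFC of 0.08. The group II intron maturase gene mat-r had the largest value of the 26, 0.90 with a 95% interval of 0.02 to 1.77 (edgeR adjusted p = 0.310), from 16.2, 11.4 and 17.3 CPM in the mutant JA group and 11.98, 2.51 and 9.86 CPM in the file-named wild type JA group.

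Among the 10 open reading frames with no assigned product, orf140-a had 79.7, 59.5 and 88.9 CPM in the mutant JA group, against 54.4, 56.2 and 48.4 CPM in the file-named wild type JA group. The groups did not overlap, and the log2 fold change was 0.52 ± 0.15 (edgeR adjusted p = 0.0747). Its values were close to those of orf101-a in each library (0.49 ± 0.15, edgeR adjusted p = 0.102), and reads shared between these frames would count for both, which was not tested. Each was called in 1 of the 6 fits without a library, with edgeR adjusted p-values of 0.0308 and 0.0351. The mitochondrial ribosomal RNAs were far more abundant: rrn26 had 2184, 1687 and 2493 CPM in the mutant JA group and 1584, 1827 and 1828 CPM in the file-named wild type JA group (0.28 ± 0.15, edgeR adjusted p = 0.395), and rrn18 had 1073, 783 and 1177 CPM in the mutant JA group and 812, 784 and 790 CPM in the file-named wild type JA group (0.35 ± 0.20, edgeR adjusted p = 0.448). In both, replicate 2 of the mutant JA group was within or below the range of the file-named wild type JA libraries. With no low-count filter both were called (edgeR adjusted p = 0.0132 for rrn26 and 0.0460 for rrn18).

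From the plastid genome only ndhA and ndhD, which encode subunits of the NDH complex, were tested. The gene ndhD had 9.97, 7.59 and 7.41 CPM in the mutant JA group, against 4.61, 4.19 and 3.59 CPM in the file-named wild type JA group, without overlap, and a log2 fold change of 0.99 (95% interval 0.04 to 1.95, edgeR adjusted p = 0.298). The counts of ndhA were nearly the same in each library, and whether both rest on the same reads was not tested. Of the microRNA precursors, MIR396c had 15.0, 6.33 and 11.1 CPM in the mutant JA group and 7.37, 3.35 and 5.38 CPM in the file-named wild type JA group (1.01 ± 0.56, edgeR adjusted p = 0.418), and MIR169f had a log2 fold change of -0.15 (95% interval -0.85 to 0.55). In maize and other plants miR396 acts on growth-regulating factor transcripts and miR169 on NF-YA transcripts.

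The no-JA pair was measured alongside. There 25 of the 26 mitochondrial genes had a positive log2 fold change in the file-named mutant no-JA group over the wild type no-JA group, with a median of 0.59, against 5597 of 11265 over all features. Of the 26, 4 were called (15.4%, against 5.2% of all features), nad4 (0.93), cox1 (1.17), cox3 (0.71) and atp4 (0.68). The difference between the comparisons was itself tested, and none of the 26 passed by edgeR, where 4 (15.4%, against 11.2% of all features) had an unadjusted p under 0.05. DESeq2 called none of them either, with 2 of the 26 at an unadjusted p under 0.05, against 824 of 11265 over all features. The mitochondrial share of counts was 0.504, 0.604 and 0.354% in replicates 1, 2 and 3 of the file-named mutant no-JA group and 0.261 to 0.334% in the wild type no-JA group. The high shares lay in replicates 1 and 2, the libraries of high ENSRNA share. Of nad4, the levels were 84.3, 83.5 and 42.9 CPM in the file-named mutant no-JA group, against 33.9, 38.9 and 39.1 CPM in wild type. Without replicates 1 and 2, which leaves 1 library in the group, 13 of the 26 mitochondrial genes were positive in the no-JA pair with a median of 0.00. That fit was chosen after seeing the data, and it was not run with DESeq2.

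**Figure D3:**
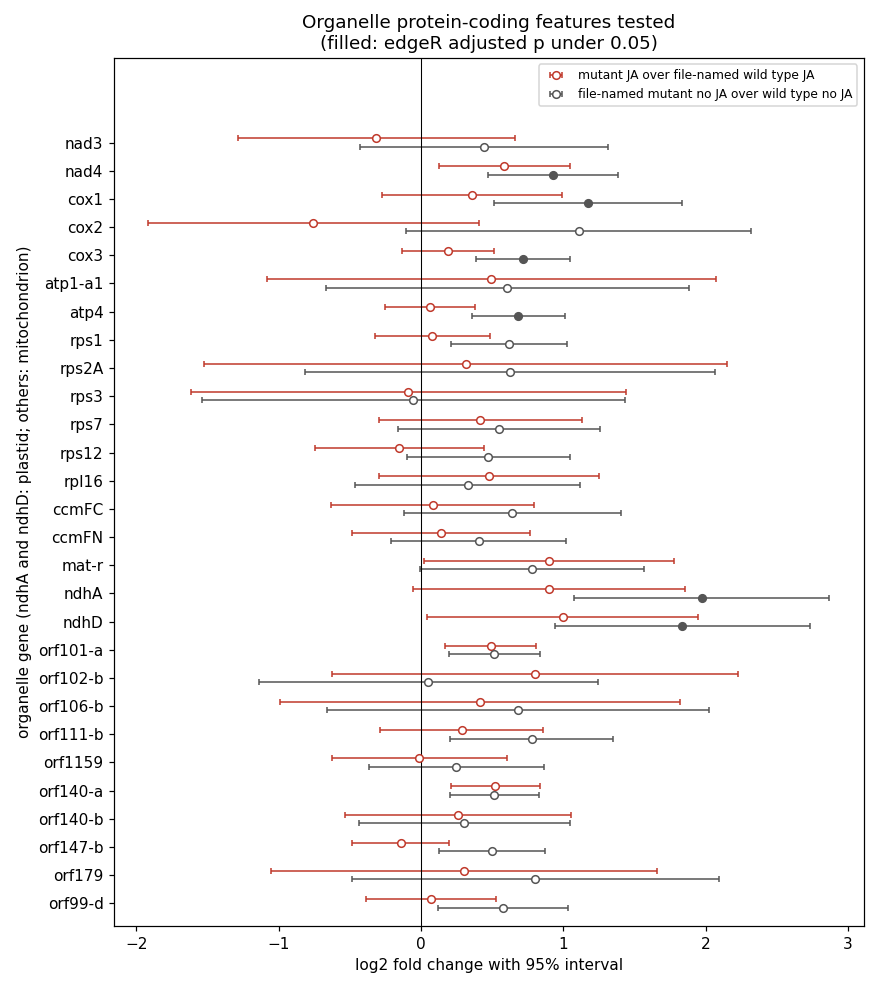
Log2 fold change with 95% interval (horizontal) of the 26 mitochondrial and 2 plastid protein-coding features tested (vertical), for the mutant JA group over the file-named wild type JA group (red) and for the file-named mutant no-JA group over the wild type no-JA group (grey). Filled points have an edgeR adjusted p under 0.05: there are none in red, and nad4, cox1, cox3, atp4, ndhA and ndhD in grey.

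Of the 328 features called in the mutant JA comparison, 124 were called in the same direction in the no-JA pair, 54 higher and 70 lower, and 7 in the opposite direction. This is 37.8% of the 328 and 21.2% of the 586 features called in the no-JA pair, which are 5.2% of those tested, with 309 (2.74%) higher and 277 (2.46%) lower in the file-named mutant no-JA group. Of the 139 features higher in the mutant JA group, 122 had a positive value in the no-JA pair, with a median log2 fold change of 0.36. Of the 189 lower ones, 153 were negative there, with a median of -0.36. Over all features tested the sign was shared by 58.6%. Without replicates 1 and 2 of the file-named mutant no-JA group, those of high ENSRNA share, 139 features were called in place of 586, but that fit leaves 1 library in the group, which is assumed to vary like the other groups, and no other pair of libraries was left out. Without single libraries the count was 300 to 439, moved by over 1.5 times by each wild type no-JA library and by replicate 1 of the file-named mutant no-JA group.

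The 2 comparisons also differed in places. The difference between them, tested in the same fit, was past the threshold for 71 features, 0.63% of those tested, with 24 (0.213%) positive and 47 (0.417%) negative, and 1263, 11.2%, had an unadjusted p under 0.05. Of the 71 called features, 32 were called in the mutant JA comparison and 49 in the no-JA pair, and in 48 the comparisons had opposite signs. The count was 25 to 57 with single libraries left out, and lowest without replicate 1 of the wild type no-JA group. The other libraries that moved it by over 1.5 times were replicates 2 and 3 of the mutant JA group, replicates 2 and 3 of the file-named wild type JA group, replicate 3 of the file-named mutant no-JA group and replicate 3 of the wild type no-JA group. Of the 50 most abundant features, where the test can call smaller differences, 16 were among the 71. Zm00001d006010 was high in the mutant JA group alone within the JA experiment. Its levels were 54.8, 67.1 and 65.4 CPM in the mutant JA group, against 6.45, 13.4 and 20.6 CPM in the file-named wild type JA group, a log2 fold change of 2.197 ± 0.30 (edgeR adjusted p = 0.00064). The no-JA pair had 17.5, 26.8 and 19.7 CPM in the file-named mutant libraries and 22.4, 15.8 and 16.4 CPM in wild type, which overlap. Both groups of the genotype experiment, fitted separately, were above these levels, with means of 46.7 CPM in mutant and 34.6 CPM in wild type (log2 fold change 0.43, edgeR adjusted p = 0.00892).

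The genotype experiment gives a list of genes whose labels carry no conflict. With 17841 features tested, 1104 were called there, 6.19%, with 576 (3.23%) higher and 528 (2.96%) lower in mutant than in wild type. Of the 888 that were also tested in the JA experiment, 74 were called in the same direction in the mutant JA comparison, 41 higher and 33 lower, and 12 in the opposite direction. The 74 are 8.33% of the 888, and 23.8% of the 311 features called in the mutant JA comparison that were tested in both experiments. Leaving out single libraries of the mutant JA comparison gave 42 to 53 such genes, and each of the 6 except replicate 1 of the mutant JA group moved the count by over 1.5 times. Over all 10886 features tested in both, the signs matched for 55.0%.

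Taken by sign, the genes higher in mutant in the genotype experiment were positive in the mutant JA comparison for 289 of 462, 62.6%, with a median log2 fold change of 0.11. Those lower in mutant were negative for 295 of 426, 69.2%, with a median of -0.16. Over all features tested in the JA experiment 50.6% were positive and 49.4% negative. In the no-JA pair the same lists were positive for 338 of 462, 73.2%, with a median of 0.18, and negative for 315 of 426, 73.9%, with a median of -0.23. The comparisons across the pairs that were computed, which reuse the libraries of both, had smaller shares. Not every comparison across the pairs was computed. For the file-named wild type JA group over the wild type no-JA group they were 59.3 and 53.8%, and for the mutant JA group over the file-named mutant no-JA group 47.4 and 49.8%. Of the 10886 features tested in both experiments, 44 were called in the same direction in the mutant JA comparison, the no-JA pair and the genotype experiment, 26 higher and 18 lower. The median absolute log2 fold change of the 44 in the mutant JA comparison was 0.76.

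**Figure D4:**
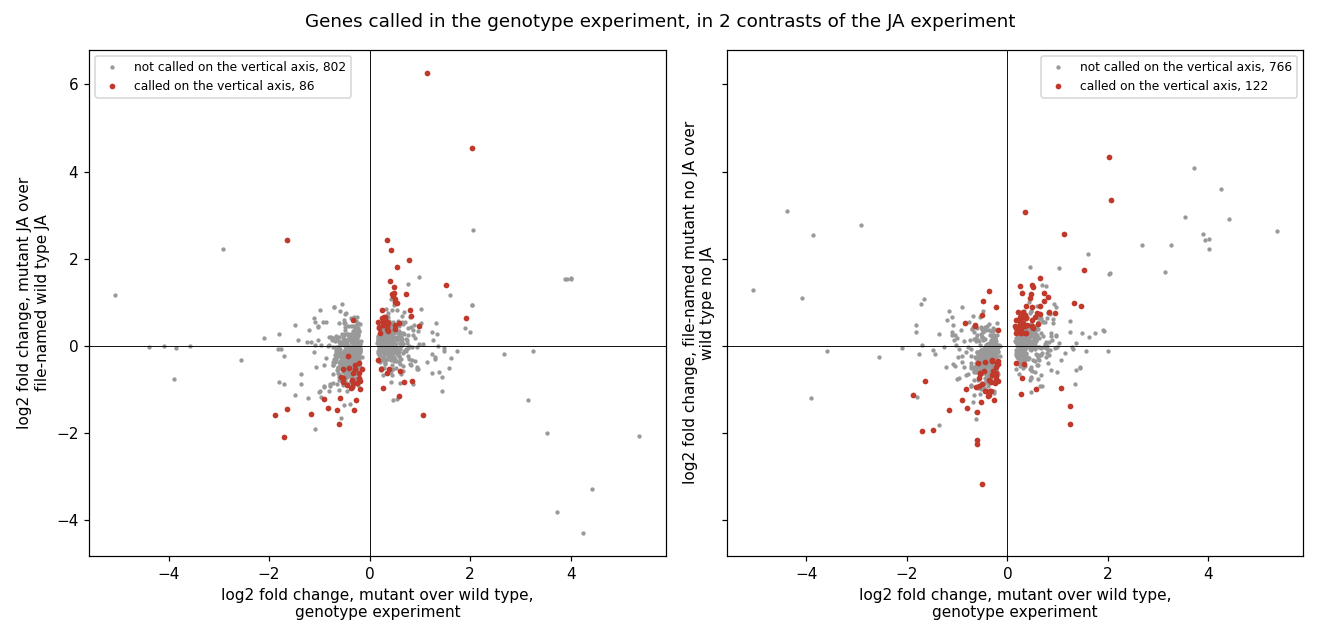
Log2 fold change of the 888 genes called in the genotype experiment, mutant over wild type (horizontal), against that in the mutant JA group over the file-named wild type JA group (vertical, left) and in the file-named mutant no-JA group over the wild type no-JA group (vertical, right). Red points were called on the vertical axis, 86 on the left and 122 on the right; most of them lie in the quadrants where the signs match.

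A set of 4 nuclear genes, 2 higher and 2 lower in mutant, had been picked for their differences in the genotype experiment and was read in the JA libraries too. Zm00001d020949 had 19.7, 10.7 and 15.3 CPM in mutant and 2.23, 4.93 and 3.51 CPM in wild type in the genotype experiment (log2 fold change 2.07 ± 0.27). It had 11.2, 11.4 and 12.3 CPM in the mutant JA group, against 1.84, 3.35 and 0 CPM in the file-named wild type JA group, on 28 and 6 counts. The groups did not overlap, but the log2 fold change of 2.65 ± 0.75 missed the threshold (edgeR adjusted p = 0.0783). It passed with no low-count filter (edgeR adjusted p = 0.00406), with ENSRNA features left out (0.0276) and when only the 6 libraries were fitted (0.0215). It missed in each of the 6 fits without a library (edgeR adjusted p = 0.111 to 0.212), under the replicate block (0.105) and with RLE scaling (0.0784). The no-JA pair gave 8.35, 8.94 and 20.9 CPM in the file-named mutant libraries, against 0, 2.82 and 0.584 CPM in wild type (3.36 ± 0.70, edgeR adjusted p = 0.0109).

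The other 3 of these genes showed no such difference in the JA libraries. Zm00001d041300 averaged 2.81 ± 0.43 CPM in mutant and 16.7 ± 1.74 CPM in wild type in the genotype experiment, a log2 fold change of -2.55 ± 0.22. In the JA experiment it averaged 35.8 ± 7.53 CPM in the mutant JA group and 44.6 ± 7.16 CPM in the file-named wild type JA group (SD, n = 3 libraries each), a log2 fold change of -0.31 with a 95% interval of -0.75 to 0.12 that does not reach the difference seen in the genotype experiment. Zm00001d040153 had a log2 fold change of -2.10 ± 0.27 in the genotype experiment and of 0.19 in the mutant JA comparison (95% interval -0.42 to 0.79). Zm00001d041436 had 2.00 ± 0.23 in the genotype experiment and 0.32 in the mutant JA comparison (95% interval -0.24 to 0.88). For all 3 the no-JA pair also lay near 0, with log2 fold changes of -0.26, -0.04 and -0.11.

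Nuclear identifiers were also read in blocks of 1000 by number. Their genome positions are not used here. Block 042 had the highest share of calls in the mutant JA comparison, 25 of 238 tested genes, 10.5%, with 9 higher and 16 lower. The next highest share among the 54 blocks with at least 50 tested genes was 6.10%, and the median block had 2.68%. Block 042 held 30 called genes in the no-JA pair, 12.6%, and 17 were called in the same direction in both. In the genotype experiment 70 of 391 genes of block 042 were called, 17.9%. Block 040 was different: it had 49 of 266 genes called in the genotype experiment, 18.4%, but 1 of 161, 0.621%, in the mutant JA comparison, and 1 of 161 in the no-JA pair. Block 041 had 18.3% called in the genotype experiment and 8 of 152 genes, 5.26%, in the mutant JA comparison.

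The genes of the genotype list were counted by block too. In block 040, 19 of 35 had the same sign in the mutant JA comparison, 54.3%. In block 042, 26 of 48 had the same sign, 54.2%, with 9 called in the same direction and 6 in the opposite one. Block 041 had 21 of 37 with the same sign, 56.8%, with 2 called in the same direction and 0 in the opposite one. Block 043 had 16 of 36, 44.4%, with 0 and 1 called. Over the nuclear genes outside blocks 040 to 043, 488 of 705 had the same sign, 69.2%, with 63 called in the same direction and 5 in the opposite one. In the whole list 74 of 888 were called in the same direction and 12 in the opposite one, and 2.91% of all features tested were called. The difference between blocks was not tested.

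**Figure D5:**
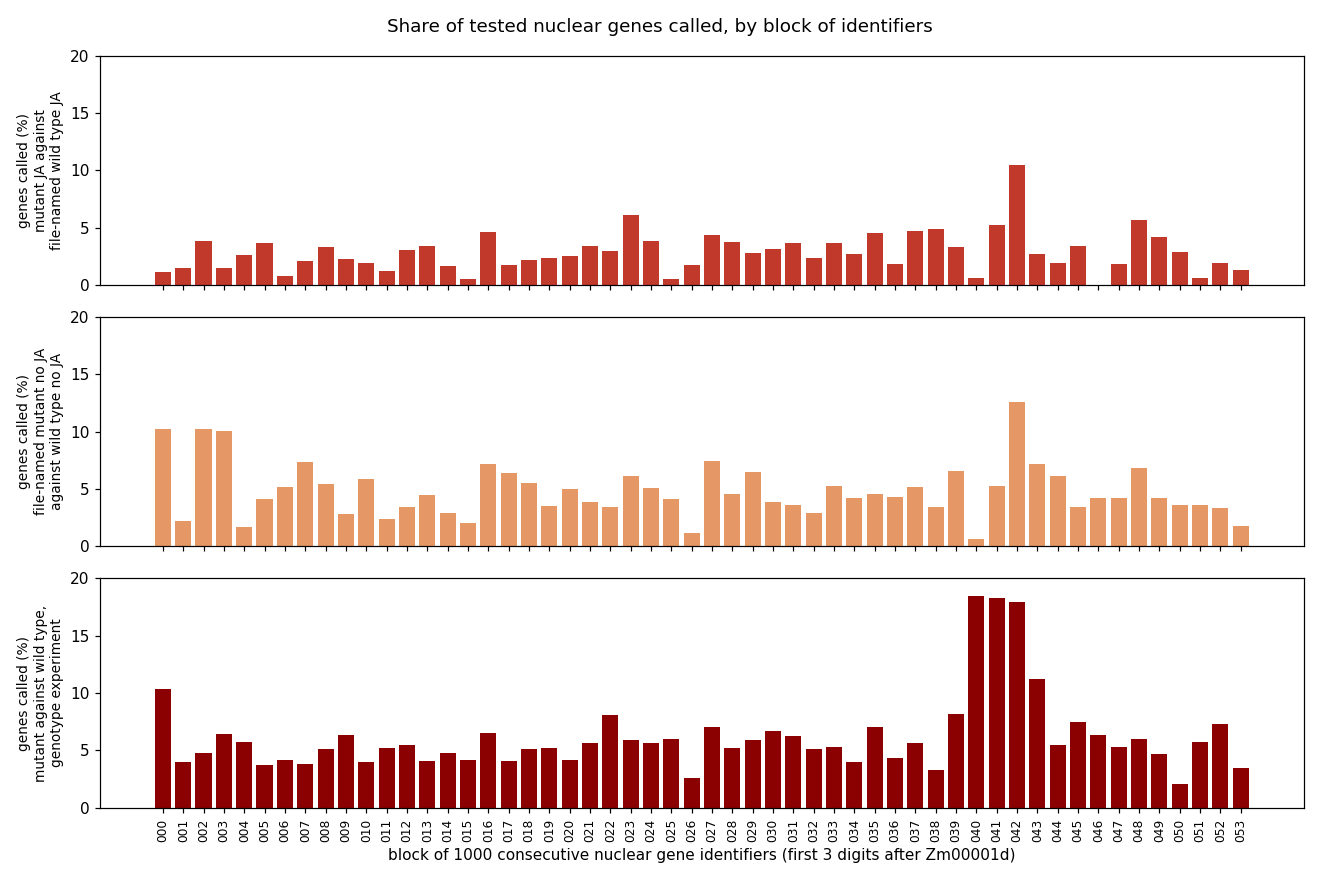
Percentage of tested nuclear genes called (vertical, from 0) in each block of 1000 consecutive identifiers (horizontal), for the mutant JA comparison (top), the no-JA pair (middle) and the genotype experiment (bottom). Block 042 stands highest in the top panel at 10.5%, and block 040 is at 0.621% there and at 18.4% in the bottom panel.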

How the data were processed

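The authors deposited counts as whole numbers for 46430 features, with a file for each library. Trimmomatic 0.39 and HISAT2 2.2.1 were used, per the submitters' processing notes. The counting program, genome build, annotation, strand setting and duplicate removal were not given in the sources used here, and overlapping genes and near-identical copies are uncertain. Deposited counts were used unchanged.

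The 12 libraries of the JA experiment were fitted together in 4 groups, and the genotype experiment alone, with edgeR 4.0.16 in R 4.3.3: TMM scaling, filterByExpr with a minimum count of 10, quasi-likelihood fits, 2-sided tests, and Benjamini-Hochberg adjustment over all features tested. Standard errors were computed as |log2 fold change| over the root of F. DESeq2 1.42.0 was an alternative. Only the edgeR steps of the mutant JA comparison were tested on simulated data, not the other comparisons or DESeq2. Chi-square comparisons of the 18 pairs within the 6 groups used gave 1.76 to 6.44 per degree of freedom, above sampling noise in each; pairs across groups were not compared.

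Names, and nothing else, came from a table by RefSeq (assembly Zm-B73-REFERENCE-NAM-5.0). Every organelle feature matched it but not any of the 44146 nuclear identifiers, so gene lists of nuclear genes had no matched member. By rule, up to 2 nuclear identifiers per direction were named: called, at least 10 CPM in 1 group, groups without overlap, ordered by log2 fold change. The members and lists were chosen with earlier results of these data known. Same-numbered libraries of the groups compared deviated from their group means with correlations of 0.043, -0.012 and 0.100, and the numbers were not taken to pair the samples.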

Additional observations from a re-analysis of the deposited data

Results flagged for a closer look

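The contrast of the mutant JA group with the file-named wild type JA group differed from that of the file-named mutant no-JA group with the wild type no-JA group for 71 features, by edgeR's test of the difference itself. DESeq2 called 140, but it gave no adjusted p for the difference of any gene named here. In edgeR 1263 features had an unadjusted p under 0.05. For Zm00001d045462 the log2 difference was 2.16 ± 0.42 (edgeR adjusted p = 0.0301): it had 17.4, 10.1 and 28.4 CPM in the mutant JA group and 15.7, 18.4 and 21.5 CPM in the file-named wild type JA group, while the no-JA pair had 14.4, 18.9 and 12.7 CPM in the file-named mutant libraries, against 56.3, 82.9 and 66.6 CPM in wild type. The wild type no-JA libraries alone were high within the JA experiment. Both groups of the genotype experiment were high too, with means of 51.3 CPM in mutant and 77.7 CPM in wild type (log2 fold change -0.60, edgeR adjusted p = 0.0135). For Zm00001d006010 the log2 difference was 1.99 ± 0.42 (edgeR adjusted p = 0.0462), with the mutant JA libraries alone high within the JA experiment, though not against the genotype experiment. For Zm00001d029716 it was -2.91 ± 0.54 (edgeR adjusted p = 0.0216): the levels were 6.23, 6.33 and 12.3 CPM in the mutant JA group and 22.1, 12.6 and 8.07 CPM in the file-named wild type JA group, and in the no-JA pair 45.6, 35.8 and 40.6 CPM in the file-named mutant libraries, against 5.48, 11.3 and 11.1 CPM in wild type. For Zm00001d044130 it was -2.76 ± 0.54 (edgeR adjusted p = 0.0290), from 9.97, 5.06 and 4.94 CPM in the mutant JA group and 10.1, 10.9 and 12.6 CPM in the file-named wild type JA group, and from 12.9, 12.9 and 12.7 CPM in the file-named mutant no-JA libraries, against 2.99, 4.51 and 1.75 CPM in wild type. Of 12 fits that each left out a library, the call held in 3 for Zm00001d045462, in 2 for Zm00001d006010, in 7 for Zm00001d029716 and in 2 for Zm00001d044130, with edgeR adjusted p-values up to 0.136. A fit with the replicate number as a block lost the calls of Zm00001d006010 (edgeR adjusted p = 0.0706), Zm00001d029716 (0.0582) and Zm00001d044130 (0.0629), and equal depth lost that of Zm00001d006010 (0.148).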

How the results depend on the processing

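The count of the mutant JA comparison, 328, was 324 to 326 under DESeq2, RLE scaling and library sizes without the 50 most abundant features, 345 with a filter of 10 CPM in 3 libraries, 487 with no low-count filter, 451 without ENSRNA features and 262 after thinning to 839322 counts a library, an alternative chosen after seeing the data. It was 214 with only the 6 libraries, 107 with a minimum absolute log2 fold change of 1, and 180 to 216 with single libraries left out. The replicate block gave 247, although the numbers were not taken to pair the samples. Of 12 libraries, 3 had their best match in another group with a library of their own number. For the difference between the comparisons, 71, DESeq2 gave 140, no low-count filter 289, leaving out ENSRNA features 124, the replicate block 47, leaving out both high-ENSRNA libraries of the file-named mutant no-JA group (chosen after seeing the data; 1 library remains, assumed to vary like the other groups) 45, and leaving out single libraries 25 to 57. In the no-JA pair, 586, these last alternatives gave 139 and 300 to 439. Of the 74 genes shared with the genotype experiment, no low-count filter gave 118, and leaving out single libraries 42 to 53. The causes were not tested. None of the named nuclear genes that were called changed sign, while 22 values of uncalled organelle or microRNA features did; the other called features, ENSRNA included, were not followed singly. DESeq2 gave no adjusted p for 18 named features. Among them were Zm00001d039484, Zm00001d008417 and Zm00001d020949 in the mutant JA comparison, and all genes named for the difference between the comparisons. Zm00001d008417 and Zm00001d042361 rest on 5 and 7 counts in the mutant JA group.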
